A study of Mus musculus with 20 samples.

Results

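Major urinary proteins (Mup genes) and the odorant-binding protein Obp2a encode small secreted lipocalins, and their transcript levels were compared in the liver of 4 mouse strains. The set held 6 genes chosen by symbol, Mup3, Mup4, Mup5, Mup20, Mup21 and Obp2a. Probe sets whose platform annotation gave 1 of these symbols alone were taken, and 4 of the 6 genes had such a probe set (Mup3, 10513529; Mup5, 10513514; Mup21, 10513538; Obp2a, 10470175), each of them the single probe set of its gene. They are 4 of the 19938 genes that the array's annotation named in this way. Mup4 and Mup20 (darcin) were named by no probe set of their own and are not analysed here. A further 7 probe sets were annotated to several genes that include Mup genes or Mup pseudogenes, and they are described as shared.

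Liver RNA came from 20 male mice aged 6 weeks, 1 whole-transcript array per animal and 5 animals per strain. The strains were NZO/Hl (NZO, a model of obesity and type 2 diabetes), C3H, 129P2/OlaHsd (129P2) and C57/Bl6 (B6). The C3H mice were a Jackson Lab stock, and their label gives its stock number but no substrain name. All groups shared the same diet, a high-fat feed with 45% of its energy from fat, given from weaning at 21 days, so no strain had a control diet. The arrays served to find candidate genes. B6 was used as the comparison strain for the others, and NZO was also set against C3H and 129P2.

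Mup genes lie in a cluster of near-identical copies on chromosome 4. In mice the liver secretes their products into blood, from where they pass into urine, carry volatile pheromones and act as scent signals. Liver Mup transcription is higher in males and depends on the pulsed release of growth hormone, with androgen, glucocorticoid and thyroid hormone acting as well. Some copies, Mup4 and Mup5 among them, are known mainly from lacrimal and salivary glands. Mup20 encodes darcin, the urinary protein by which females recognise male scent. Obp2a, listed in the RefSeq gene table also as Lcn13, lies on chromosome 2 outside the Mup cluster and encodes a secreted lipocalin reported from mouse liver.

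The promoters of Mup3, Mup21 and Obp2a are shown because Mup3 and Mup21 were nearly alike in sequence, while the Obp2a promoter holds neither motif that the Mup promoters share. Whether promoter sequence bears on the strain differences was not tested. Each line gives the 250 bases before the annotated start, 5′ to 3′ on the gene's own strand, from RefSeq's GRCm38.p6 table. Capitals mark motifs found by search. ATCAATA and TATATAA are marked in the Mup genes and TATAAA in Obp2a.
Mup3, chr4:62087318-62087567, minus strand: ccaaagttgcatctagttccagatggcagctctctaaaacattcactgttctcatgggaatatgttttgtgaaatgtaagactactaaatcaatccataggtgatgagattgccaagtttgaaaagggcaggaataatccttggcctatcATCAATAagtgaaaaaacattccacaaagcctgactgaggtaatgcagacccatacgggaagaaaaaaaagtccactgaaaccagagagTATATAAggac
Mup21, chr4:62150842-62151091, minus strand: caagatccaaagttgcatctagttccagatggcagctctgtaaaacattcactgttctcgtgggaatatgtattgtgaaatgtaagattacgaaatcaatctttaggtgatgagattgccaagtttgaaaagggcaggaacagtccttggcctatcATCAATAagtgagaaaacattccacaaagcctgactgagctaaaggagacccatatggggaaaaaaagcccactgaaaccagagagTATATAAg
Obp2a, chr2:25699824-25700073, plus strand: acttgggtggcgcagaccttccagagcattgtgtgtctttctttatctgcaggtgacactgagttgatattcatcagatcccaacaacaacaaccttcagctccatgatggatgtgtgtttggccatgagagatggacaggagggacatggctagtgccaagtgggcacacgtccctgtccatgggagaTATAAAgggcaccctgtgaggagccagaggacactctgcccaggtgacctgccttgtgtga

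The Mup3 and Mup21 windows were 93.4% identical over 244 aligned bases. Mup4, which has a promoter in the table but no probe set of its own, matched Mup3 at 88.6% of 229 aligned bases and Mup21 at 84.8% of 223. Both strands were searched for 5 motifs. ATCAATA, letters of the kind bound by the liver factor HNF6 (Onecut1), occurred in all 3 of these Mup promoters and in 1.86% of the 32851 promoters of the table. TATATAA, of the kind found in core promoters, occurred in the same 3 promoters and in 3.04% of all. TATAAA, added after the Obp2a promoter had been read, occurred in Obp2a and Mup4 (in Mup4 overlapping TATATAA) and in 12.4% of all promoters. TTCNNNGAA, the letters bound by STAT factors, occurred in none of these promoters and in 7.02% of all. TTGCNNAA, a C/EBP type, likewise occurred in none of them and in 9.56% of all. These windows are those of the reference genome and not of the other strains.

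Levels are the deposited log2 values, on which 1 unit is a 2-fold difference in signal. An array's own 40th percentile over all 35556 probe sets, between 6.53 and 6.72, served as a floor, and a value under it is called dim. Levels of different probe sets are not compared as amounts of RNA, since probes differ in brightness. A level given under a Mup symbol is that of the probe set annotated to it. Whether other near-identical Mup copies add to that signal, or sequence differences between strains under the probes change it, was not tested. Differences were tested with limma over 14190 genes with Benjamini-Hochberg adjustment, and a gene is called where the adjusted p is under 0.05. All 4 measured members passed the filter on dim genes. Correlations between arrays were 0.975 to 0.989 within strains and 0.966 to 0.986 between them. All 6 hepatocyte markers (Alb, Apoa1, Ttr, Trf, Serpina1c and Cyp2e1) lay above the floor on every array and were called in no comparison, the 3 kidney markers were dim on all 20 arrays, the Y-linked genes Eif2s3y, Uty and Kdm5d lay above the floor on all 20, and Xist was dim on all 20, as the labels of male liver would have it. In bulk liver, fewer cells of a type and less RNA per cell cannot be told apart.

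Obp2a differed most among the strains. Its mean was highest in C3H and lowest in NZO, where it was dim on all 5 arrays. The 129P2 and B6 means lay between, but Obp2a was called in neither NZO minus 129P2 nor NZO minus B6. The F-test over the 4 strains called it (limma adjusted p = 4.18e-05) and Mup21 (0.021), and did not call Mup5 (0.0888) or Mup3 (0.386); 17% of all tested genes were called. In the pairwise comparisons the number of the 4 members called was 0 for NZO minus B6 (10.3% of all tested genes were called), 1 for NZO minus C3H (6.6%), 0 for NZO minus 129P2 (8.9%), 2 for C3H minus B6 (8.05%), 1 for 129P2 minus B6 (6.19%) and 1 for C3H minus 129P2 (5.03%). With 4 members, counts of 0 to 2 are too few to set apart from those shares.

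**Figure D1:**
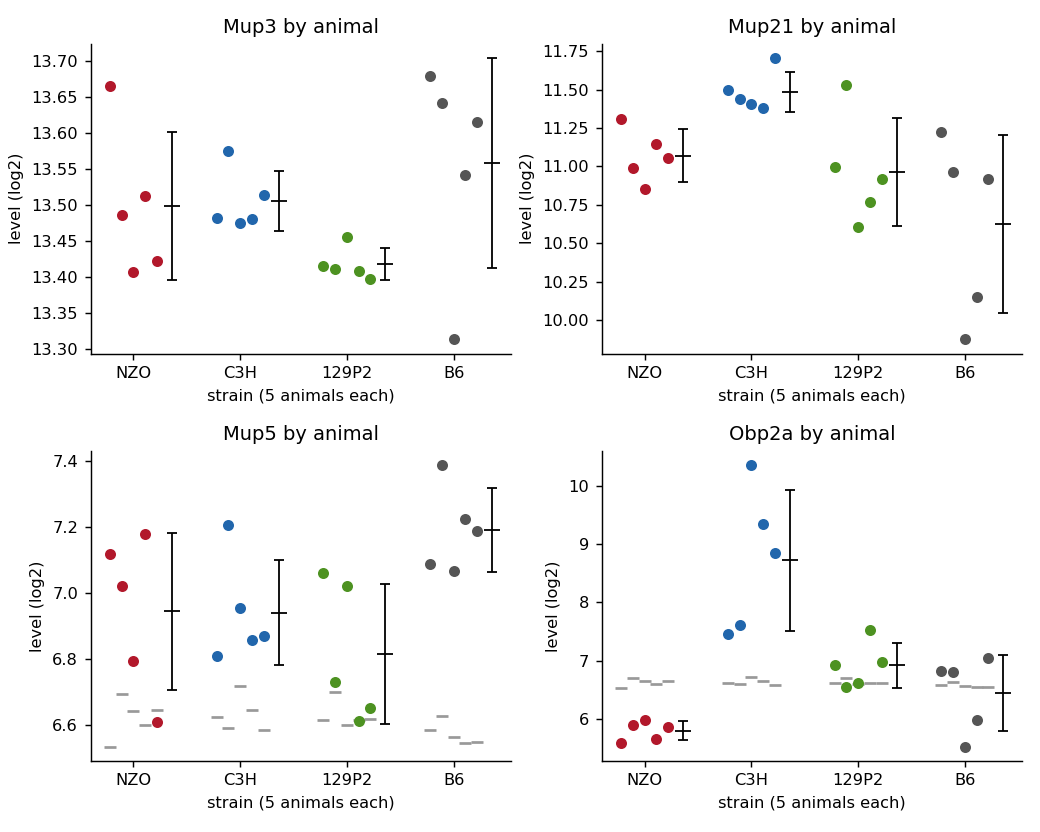
Levels of the 4 measured members (log2, vertical axes with different ranges) in the 5 animals of each strain, replicate 1 to 5 from left to right within a strain; black marks show the mean and SD, and grey dashes in the Mup5 and Obp2a panels show each array's floor. Obp2a lies below the floor on all 5 NZO arrays and above it on all 5 C3H arrays, and B6 replicate 3 is the lowest B6 animal in all 4 panels.

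Obp2a was at 5.59, 5.90, 5.98, 5.65 and 5.87 in the 5 NZO livers. It was at 7.46, 7.60, 10.35, 9.34 and 8.84 in C3H, at 6.92, 6.55, 6.62, 7.52 and 6.98 in 129P2, and at 6.83, 6.80, 5.52, 5.98 and 7.05 in B6. All 5 C3H values lay above every NZO and every B6 value, and the lowest of them, 7.46, lay just under the highest 129P2 value. The 5 NZO values lay under every 129P2 value but overlapped with B6, where replicates 3 and 4 were dim as well; 1 of 5 129P2 values was dim.

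Obp2a was lower in NZO than in C3H, with a difference of -2.92 ± 0.39 log2 units (SE; limma adjusted p = 1.98e-05). Since it was dim throughout NZO, the difference is a bound, and Obp2a was at least 4.27-fold lower in NZO than in C3H (measured means 5.80 ± 0.17 in NZO and 8.72 ± 1.21 in C3H, SD, n = 5 each). The bound takes the mean NZO floor in place of the NZO mean. The call held in all 33 alternatives run, with differences from -3.23 to -2.10.

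C3H also exceeded B6, by 2.28 ± 0.39 (limma adjusted p = 0.000425), and 129P2, by 1.80 ± 0.39 (0.00525). With dim values raised to the floor these differences were 1.96 and 1.77. The values of C3H and B6 did not overlap, which was so for 8.81% of all tested genes in that comparison; between NZO and B6 the values overlapped for all 4 members (no overlap for 9.32% of all tested genes). Being higher in C3H than in each of the other strains, with all 3 calls, was a pattern that 44 of the 14190 tested genes showed (0.31%). The spread within C3H was wide, at 2.89 log2 units between the lowest and the highest animal, against 0.39 in NZO. The highest C3H animal, replicate 3, was also the array with the narrowest spread of values in the series (interquartile range 2.17 log2). Without that animal, NZO minus C3H was -2.51 (adjusted p = 2.5e-05), C3H minus B6 was 1.87 (0.00085) and C3H minus 129P2 was 1.39 (0.0137). With array spread as a covariate the differences were -2.83, 1.80 and 1.77, and all 3 remained called.

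NZO minus 129P2 gave -1.12 ± 0.39 for Obp2a, which missed the limma threshold (adjusted p = 0.0794) although the values of the 2 strains did not overlap (values did not overlap for 7.95% of all tested genes). The exact two-sided permutation test of 5 against 5 animals gave p = 0.00794, the smallest that this design allows, and this p is not adjusted for the 24 pairs examined. Against the floor, Obp2a was at least 1.23-fold lower in NZO than in 129P2. The limma call was made when the other strains were left out of the fit (0.000337), with array weights (0.0299), once the 3 arrays of narrowest spread were left out (0.0396), and without C3H replicate 1 (0.0486) or 3 (0.0228). NZO minus B6 (-0.64, adjusted p = 0.312) and 129P2 minus B6 (0.48, 0.547) were not called. Many of these values were dim, and with dim values raised to the floor the differences were -0.13 and 0.19, and NZO minus 129P2 was -0.32.

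**Figure D2:**
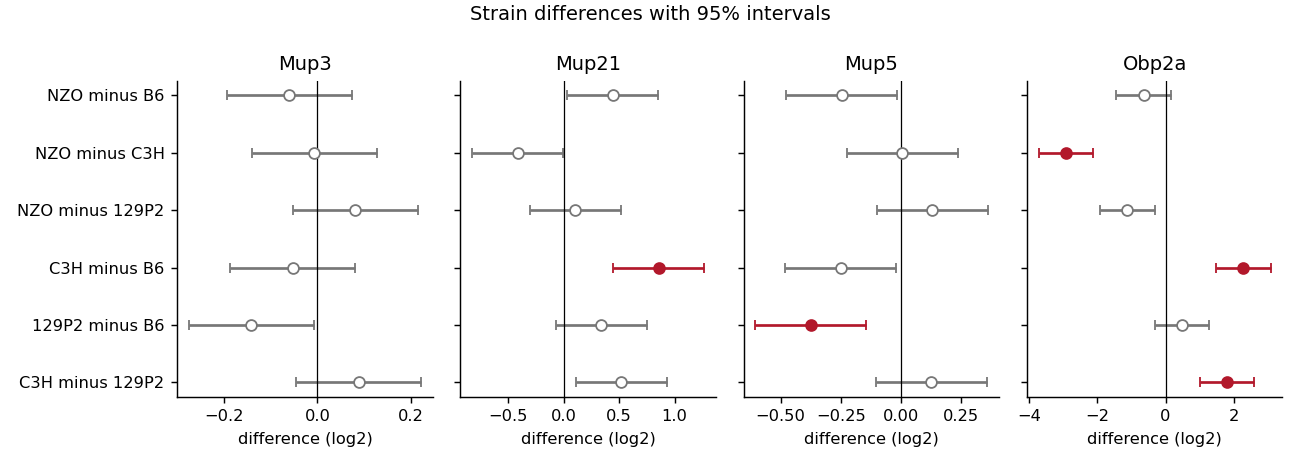
Differences between strains (log2, with 95% intervals from the limma fit, 5 animals per strain; the horizontal axes differ between panels) for the 4 measured members in 6 comparisons; filled red points are called at an adjusted p under 0.05. Red points stand at NZO minus C3H, C3H minus B6 and C3H minus 129P2 for Obp2a, at C3H minus B6 for Mup21 and at 129P2 minus B6 for Mup5.

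By the rule for likeness, the highest Pearson correlation over the 20 arrays among 13210 genes, Obp2a went with Kcnk1, a potassium channel (r = 0.88, Spearman's rho = 0.58), Mansc1, a membrane protein gene (0.88 and 0.78), and Atp6v0e2, a subunit of the vacuolar proton pump (0.86 and 0.73). These values are descriptions, since all 5 C3H values lay above all others in Kcnk1 and Mansc1, and 4 of 5 did in Atp6v0e2. Kcnk1 was at 7.20 ± 0.14 in NZO, 8.95 ± 0.68 in C3H, 7.23 ± 0.15 in 129P2 and 7.09 ± 0.13 in B6 (SD, n = 5 each). As deviations from strain means the correlations with Obp2a were 0.73 for Kcnk1, 0.43 for Mansc1 and 0.59 for Atp6v0e2. Without the 2 arrays farthest from the median Obp2a level, r was 0.70, 0.79 and 0.74.

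**Figure D3:**
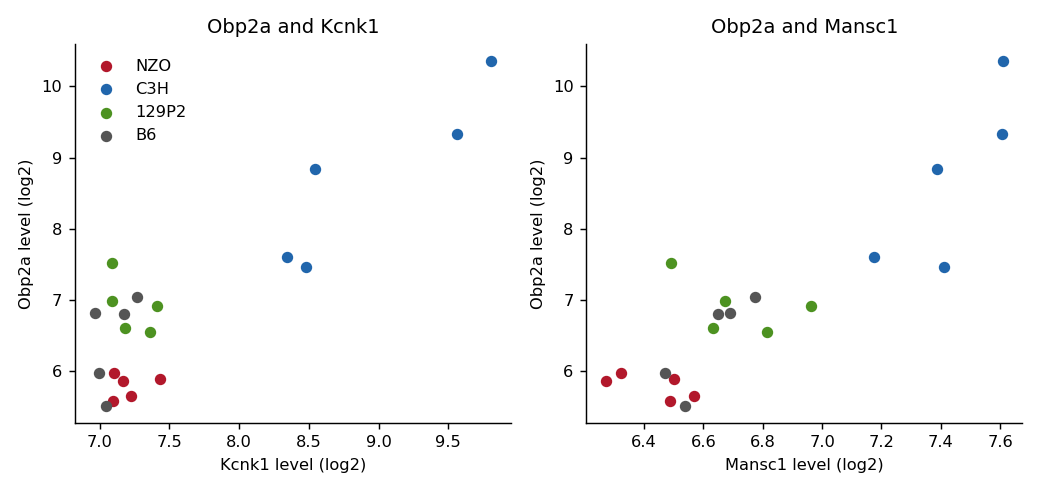
Obp2a level against Kcnk1 (left) and Mansc1 (right) on the 20 arrays (log2 on all axes), coloured by strain. The 5 C3H animals lie apart along the Kcnk1 and Mansc1 axes, while on the Obp2a axis the lowest of them (7.46) lies among the 129P2 values, and the C3H animal with the highest Obp2a, at 10.35, also has the highest Kcnk1, at 9.81.

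Of the 12 measured genes beside Obp2a in the gene order of the reference table (6 on each side), NZO minus B6 called 1 lower (10.3% of all tested genes were called), NZO minus C3H 2 lower (6.6%), NZO minus 129P2 1 lower (8.9%), C3H minus B6 1 higher (8.05%), 129P2 minus B6 1 higher (6.19%) and C3H minus 129P2 0 (5.03%). Fcna, which encodes a ficolin, was lower in NZO than in B6 (-0.34 ± 0.09, limma adjusted p = 0.0126), C3H (-0.55 ± 0.09, 0.000175) and 129P2 (-0.35 ± 0.09, 0.0115). The other called neighbours were Bmyc, a Myc-like gene, lower in NZO than in C3H (-0.43, 0.0246; lost without C3H replicate 3, 4 or 5 or NZO replicate 3 or 5, up to 0.0765), Tmem141 (higher in 129P2 by 0.41 than in B6, 0.00549) and Sohlh1 (higher in C3H by 0.24 than in B6, 0.0371; lost with array spread as a covariate, 0.238, and without any 1 of 6 animals, B6 replicates 1, 3, 4 and 5 and C3H replicates 3 and 4, up to 0.113).

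Obp2b, the odorant-binding paralog of Obp2a, averaged 6.55 ± 0.33 in NZO, 6.60 ± 0.10 in C3H, 6.52 ± 0.16 in 129P2 and 6.52 ± 0.18 in B6 (SD, n = 5 each). It was near the floor in every strain and called in no comparison (limma adjusted p from 0.676 to 0.984). Obp1a was dim on all 20 arrays. Of 24 other lipocalins listed, 14 were tested; in NZO, 4 were higher than in B6 (3.63% of all tested genes were), 2 higher than in C3H (3.51%) and 2 higher than in 129P2 (4.29%), while 1 was lower than in 129P2 and 0 lower than in the other 2 strains. C3H minus B6 had 1 lower (8.05% of all tested genes were called), 129P2 minus B6 1 higher (6.19%) and C3H minus 129P2 1 lower (5.03%). Orm2, an acute-phase plasma lipocalin, averaged 10.21 ± 0.92 in NZO, 8.25 ± 0.90 in C3H, 8.62 ± 0.35 in 129P2 and 8.29 ± 0.28 in B6. It was higher in NZO by 1.91 than in B6, 1.96 than in C3H and 1.59 than in 129P2 (limma adjusted p = 0.00119, 0.0011 and 0.00606). Lcn2, the acute-phase lipocalin that binds siderophores, was higher in NZO than in B6 by 2.01 ± 0.55 (0.0207). That call was lost with robust moderation, with array spread as a covariate (1.28, 0.123) and without B6 replicate 4 or NZO replicate 2 or 3 (up to 0.0795). The mean of Obp2a was lowest in the strain where that of Orm2 was highest, and any link between them was not tested.

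Markers of other liver cells differed among strains as well. Of all tested genes, 6.6% were called in NZO minus C3H, 10.3% in NZO minus B6 and 8.9% in NZO minus 129P2. The shares were 8.05% in C3H minus B6 and 5.03% in C3H minus 129P2. In NZO minus C3H, 3 of 5 endothelial and 2 of 5 stellate markers were lower and 0 higher, while 0 of 6 hepatocyte and 0 of 6 Kupffer markers were called. In NZO minus B6, where Obp2a was not called, 3 of 5 endothelial, 3 of 5 stellate and 1 of 6 Kupffer markers were lower, and in NZO minus 129P2 2, 3 and 1. In C3H minus B6, where Obp2a was called, 1 of 6 Kupffer markers was lower and 0 endothelial or stellate markers were called. In C3H minus 129P2, where it was called too, 2 of 6 Kupffer markers were lower and 1 of 5 endothelial markers was higher. The mean level of the Kupffer list was 8.39 to 9.15 per animal in NZO, 8.27 to 8.58 in C3H, 8.49 to 9.50 in 129P2 and 8.68 to 9.14 in B6. The mean level of the endothelial list was 8.25 to 8.68 per animal in NZO and 8.60 to 9.02 in C3H. That of the stellate list was 8.40 to 8.72 in NZO and 8.82 to 9.18 in C3H, and no defining marker of either list was dim. The 4 measured salivary and lacrimal gland markers, of which Bpifa2 was dim on all arrays, averaged 7.59 to 7.83 per animal in NZO and 7.54 to 7.68 in C3H. Their part in the Obp2a result was not tested.

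The probe set named for Mup21, a urinary protein gene of the cluster, lay 3.31 to 5.12 log2 units above the floor in liver. Mup21 was at 11.31, 10.99, 10.85, 11.15 and 11.06 in NZO and at 11.50, 11.44, 11.40, 11.38 and 11.70 in C3H. In 129P2 it was at 10.99, 11.53, 10.61, 10.77 and 10.92, and in B6 at 11.23, 10.96, 9.87, 10.15 and 10.92. All 5 C3H values lay above every NZO and every B6 value, and 1 of the 129P2 animals, replicate 2, reached into the C3H range.

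Mup21 was higher in C3H than in B6 by 0.86 ± 0.20 log2 units (1.81-fold; limma adjusted p = 0.00755; means 11.49 ± 0.13 in C3H and 10.63 ± 0.58 in B6, SD, n = 5 each). The B6 spread came from replicates 3 and 4, at 9.87 and 10.15. Without B6 replicate 3 the difference was 0.67 and still called (0.0228), whereas with array spread as a covariate it was 0.75 and not called (0.058). NZO minus C3H was -0.41 ± 0.20, which limma did not call (0.301) although the values did not overlap (6.72% of all tested genes did not overlap here; exact two-sided permutation p = 0.00794, unadjusted). It was called when the other strains were left out of the fit (0.0182). C3H minus 129P2 was 0.52 ± 0.20 (0.161), called with array weights (0.0198), and the remaining 3 comparisons were not called.

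Mup21 went most closely with Mug1, a plasma protease inhibitor of the liver (Pearson's r = 0.87, Spearman's rho = 0.77 over 20 arrays), Sdr9c7, a short-chain dehydrogenase (0.79 and 0.43), and Cpsf4l (0.79 and 0.66). Without the 2 arrays farthest from the median Mup21 level these r were 0.68, 0.41 and 0.57.

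Mup3, a urinary protein gene expressed strongly in liver, had one of the brightest probe sets on the array, above 99.6% to 99.8% of all probe sets and 0.85 to 1.20 log2 units below the brightest. It was at 13.67, 13.49, 13.41, 13.51 and 13.42 in NZO and at 13.48, 13.58, 13.48, 13.48 and 13.51 in C3H. In 129P2 it was at 13.42, 13.41, 13.46, 13.41 and 13.40, and in B6 at 13.68, 13.64, 13.31, 13.54 and 13.62. The strain ranges overlapped except that every C3H value lay above every 129P2 value. All 20 animals fell within 0.37 log2 units, and whether its place near the brightest probe set limits the differences seen was not tested.

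Mup3 was called in none of the 6 comparisons (limma adjusted p from 0.241 to 0.985). The 95% intervals of the differences reached no further than -0.27 and 0.22 log2 units, a difference of at most 1.21-fold in signal. C3H minus 129P2 was 0.09 ± 0.06 (0.559; exact two-sided permutation p = 0.00794, unadjusted; 5.4% of all tested genes did not overlap in this comparison). 129P2 minus B6 was -0.14 ± 0.06 (0.241), with means of 13.42 ± 0.02 in 129P2 and 13.56 ± 0.15 in B6. Without B6 replicate 3, the lowest animal of the series, this difference was -0.20 and was called (0.0353). Over the 20 arrays Mup3 went with Hsd17b10, a mitochondrial dehydrogenase (Pearson's r = 0.89, Spearman's rho = 0.85), Ces2b, a carboxylesterase (0.81 and 0.83), and Tacc1, a coiled-coil protein gene (0.80 and 0.82).

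Mup5 was close to the floor. It was at 7.12, 7.02, 6.79, 7.18 and 6.61 in NZO and at 6.81, 7.21, 6.96, 6.86 and 6.87 in C3H. In 129P2 it was at 7.06, 6.73, 7.02, 6.61 and 6.65, and in B6 at 7.09, 7.39, 7.07, 7.22 and 7.19. The 5 B6 values lay above all 129P2 values by a margin of under 0.01 and overlapped with NZO and C3H, and 1 NZO and 1 129P2 value were dim.

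Mup5 was lower in 129P2 than in B6, with a difference of -0.38 ± 0.11 log2 units (limma adjusted p = 0.0447; means 6.82 ± 0.21 in 129P2 and 7.19 ± 0.13 in B6, SD, n = 5 each; 7.41% of all tested genes did not overlap here). This call was lost with no filter on dim genes (0.0543), with array spread as a covariate (0.164), when the 3 arrays of narrowest spread were left out (0.113), and without any 1 of 10 animals (0.0505 to 0.121), namely B6 replicates 1, 2, 4 and 5, 129P2 replicates 2, 4 and 5, and C3H replicates 1, 4 and 5. C3H minus B6 (-0.25, 0.165) and NZO minus B6 (-0.25, 0.168) were not called. Mup5 went most closely with Rbm28 (Pearson's r = 0.82, Spearman's rho = 0.87), Supt6 (0.80 and 0.83) and Larp4 (0.80 and 0.82), which encode RNA-binding and transcription proteins. Among the Mup probe sets it went with shared 10505240 (0.76 and 0.72).

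The 7 shared probe sets are each annotated to more than 1 gene. All 7 name the pseudogenes Mup-ps12 and Mup-ps15, and all but 10505237 and 10505240 name Gm21286 as their only other gene. Beyond the pseudogenes, 10505237 names nothing, and 10505240 alone names other Mup genes, Mup16 and Mup6, with Gm21286. Of these, 10505246 and 10505258 held the same values on all 20 arrays, so 6 are distinct. They were fitted together with all named probe sets, a choice made after the data had been seen. Of the 7, 1 was called in NZO minus C3H (7.02% of 16480 probe sets were called), 1 in C3H minus B6 (9.02%) and 1 in the F-test (17.8%), and 0 in NZO minus B6 (9.98%), NZO minus 129P2 (8.79%), 129P2 minus B6 (6.73%) and C3H minus 129P2 (5.72%), with limma adjusted p of at least 0.247 in those last 4. Called each time was 10505261.

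That probe set, 10505261, was at 9.56, 9.52, 9.48, 10.29 and 9.36 in NZO and at 8.98, 9.03, 9.37, 9.17 and 8.98 in C3H. In 129P2 it was at 9.41, 9.44, 9.34, 9.29 and 9.20, and in B6 at 9.87, 9.99, 9.13, 9.71 and 9.49. C3H was the low strain. C3H and NZO overlapped only through C3H replicate 3, and C3H and B6 through C3H replicates 3 and 4 and B6 replicate 3. It was higher in NZO than in C3H by 0.54 ± 0.15 (limma adjusted p = 0.034) and lower in C3H than in B6 (-0.53 ± 0.15, 0.031). The NZO call was lost without NZO replicate 4, at a difference of 0.38 (0.106), and without C3H replicates 1, 2, 4 or 5 (0.0568 to 0.0866). The B6 call was lost without B6 replicates 1, 2 or 4 or C3H replicates 1, 4 or 5 (0.054 to 0.078), and both were lost with another quantile normalization (0.0504 and 0.1).

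For C3H minus B6 the differences of the 7 shared probe sets ran from -0.53 to -0.03, whereas Mup21 gave 0.86. The sign of the Mup signal in C3H relative to B6 thus depended on the probe set. Which Mup copies each probe set picks up was not tested. Within strains, Mup3 and Mup21 went together (Pearson's r = 0.69, Spearman's rho = 0.65 over 20 arrays as deviations from strain means, 0.52 without the 2 farthest arrays). So did Mup3 and shared 10505249 (0.80, 0.79 and 0.65). Neither Mup21 and Mup5 (0.08, 0.16 and 0.10) nor Mup21 and Obp2a (0.24, 0.14 and 0.02) went together in this way. Mup21 and shared 10505240 gave 0.36, 0.34 and 0.10, so the Mup probe sets did not all vary together. The arrays share their normalization, which these values do not separate from the animals.

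**Figure D4:**
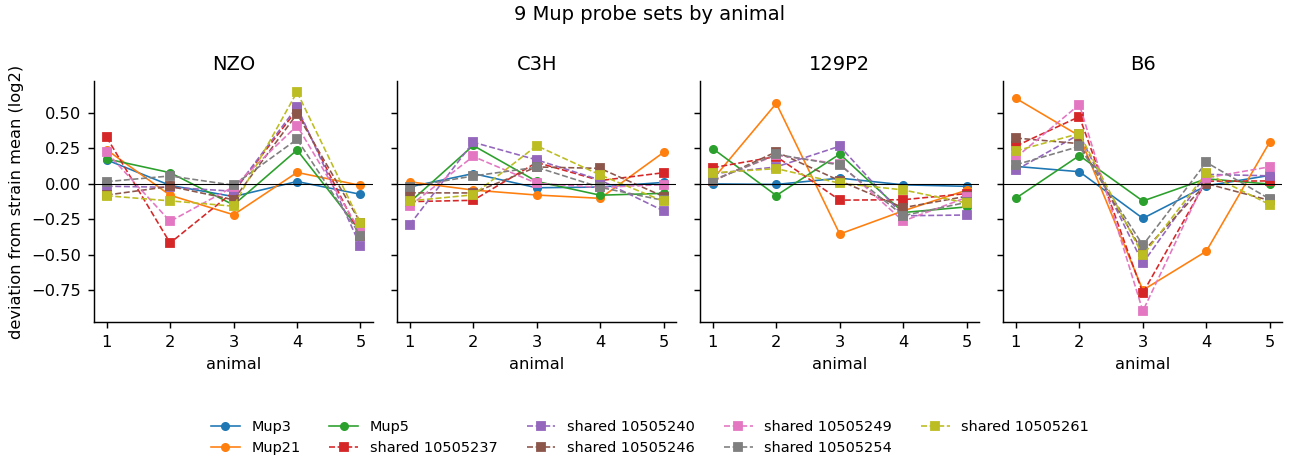
Deviation of each animal from its strain mean (log2) for the 9 distinct Mup probe sets, 3 of members (circles, solid lines) and 6 shared (squares, dashed lines), in 4 panels by strain; animals are numbered 1 to 5 and the lines join the values of a probe set without implying an order. B6 replicate 3 lies lowest of its strain in all 9, and NZO replicate 4 lies high in most shared probe sets.

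The B6 animals were not alike. B6 replicate 3 was the lowest of its strain in all 9 distinct Mup probe sets and in Obp2a (5.52). It was also the lowest of the 5 B6 animals in 19 of 26 tested male-biased liver genes and the highest in 5 of 10 tested female-biased genes, while over all tested genes it was lowest in 21.8% and highest in 24%. In no other strain was 1 animal lowest in more than 12 of the 26, but 1 C3H animal, replicate 2, was also highest of its strain in 5 of the 10 female-biased genes. This look at single animals was prompted by the values. Cyp7b1, which hydroxylates oxysterols and steroids, was at 9.28 in B6 replicate 3 and at 11.56 to 12.78 in the other B6 animals. Hsd3b5, a male-biased steroid dehydrogenase, was at 9.83 against 11.52 to 11.78, and Serpina12, which encodes the serpin vaspin, at 7.23 against 8.95 to 9.87. The female-biased Cyp2b9 was at 7.70 there and dim in the other B6 animals (4.63 to 5.18). The genes named for this animal were chosen after their values were seen. Its Y-linked genes and Xist were as in the other males.

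**Figure D5:**
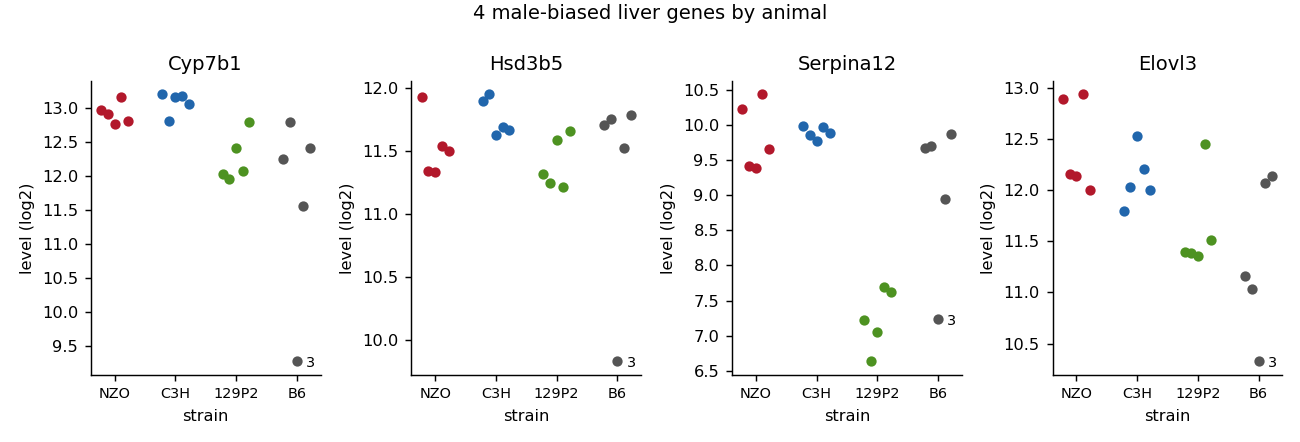
Levels of 4 male-biased liver genes (log2, vertical axes with different ranges) in the 5 animals of each strain, with B6 replicate 3 marked by its number. It is the lowest of the 20 animals in Cyp7b1 (9.28), Hsd3b5 (9.83) and Elovl3 (10.33), and in Serpina12 (7.23) it lies within the 129P2 values.

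Other male-biased liver genes are, like the Mup genes, under the control of growth hormone pulses. Of 26 tested, 10 were higher in NZO than in B6 and 1 lower (median difference 0.23, against 0.01 over all tested genes, of which 3.63% were higher). For NZO minus C3H 4 were higher and 2 lower (median 0.04, with 3.51% of all tested genes higher), and for NZO minus 129P2 8 higher and 1 lower (0.24, with 4.29%). For C3H minus B6 6 were higher and 3 lower (0.26; 2.71% of all tested genes were higher), for 129P2 minus B6 2 higher and 4 lower (0.06; 2.11%), and for C3H minus 129P2 5 higher and 2 lower (0.32; 2.25%). Without B6 replicate 3 the counts were 8 higher and 2 lower for NZO minus B6 (7.79% of all tested genes called), 6 and 4 for C3H minus B6 (5.87%) and 1 and 6 for 129P2 minus B6 (5.15%), with medians of 0.18, 0.11 and -0.03.

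Cyp4a12a, a male-biased fatty acid hydroxylase, was higher than in B6 in all 3 other strains, by 1.11 in NZO, 0.83 in C3H and 0.88 in 129P2 (limma adjusted p = 0.000124, 0.00308 and 0.00187). Moxd1, a monooxygenase-like gene, averaged 10.94 ± 1.04 in NZO, 7.23 ± 1.55 in C3H, 6.21 ± 0.16 in 129P2 and 7.43 ± 1.49 in B6 (SD, n = 5 each). It was higher in NZO by 3.52 than in B6 (0.00069), by 3.72 than in C3H (0.000426), and at least 19.9-fold higher in NZO than in 129P2 (2.32e-05), where it was dim on all 5 arrays. Moxd1 was also dim on 3 of 5 C3H and 2 of 5 B6 arrays. Over the alternatives run, NZO minus B6 was from 2.58 to 4.09 and remained called. C4a, the sex-limited complement protein gene, averaged 10.07 ± 0.25 in NZO, 8.31 ± 0.35 in C3H, 9.20 ± 0.13 in 129P2 and 9.07 ± 0.29 in B6. It was lowest in C3H, where Mup21 and Obp2a were highest, with a difference of 1.76 for NZO minus C3H (3.7e-08). Hsd17b13, a lipid-droplet dehydrogenase, was also lowest in C3H. It averaged 12.45 ± 0.08 in NZO, 10.74 ± 0.18 in C3H, 12.32 ± 0.18 in 129P2 and 12.43 ± 0.17 in B6, and C3H minus B6 was -1.69 (4.47e-11), NZO minus C3H 1.70 (3.68e-11) and C3H minus 129P2 -1.58 (2.4e-10). Selenbp2, a selenium-binding protein gene, was higher in NZO than in C3H (1.09, 6.21e-05) and 129P2 (1.58, 3.5e-07) and lower in 129P2 than in B6 (-1.05, 0.000119). Susd4, a complement inhibitor gene, was lower in NZO than in C3H (-1.40, 0.000763) and 129P2 (-1.01, 0.0116). Elovl3, a fatty acid elongase, was higher in NZO than in B6 by 1.08 (0.0147). Serpina12 was higher in NZO (2.58, 2.05e-05) and C3H (2.65, 1.51e-05) than in 129P2. It was lower in 129P2 than in B6 (-1.84, 0.0012), with a difference of -2.30 without B6 replicate 3. Cyp7b1 was higher in NZO than in B6 by 1.26 (0.0423) and in C3H than in B6 by 1.42 (0.0269), and without B6 replicate 3 by 0.67 (0.0227) and 0.82 (0.0062), so that this 1 animal moved both values by over 1.5 times. The NZO call was lost without any 1 of 10 other animals (adjusted p up to 0.0885) and in 5 other settings (up to 0.137), and the C3H call without any 1 of 4 (up to 0.0617) and in 4 other settings (up to 0.148).

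Female-biased liver genes, of which 10 of 33 listed were tested, gave 1 higher and 3 lower in NZO minus B6 (median difference -0.23; 10.3% of all tested genes were called), 2 higher and 1 lower in NZO minus C3H (-0.08; 6.6%), and 4 lower in NZO minus 129P2 (-0.50; 8.9%). C3H minus B6 had 2 lower (-0.24; 8.05%), 129P2 minus B6 2 higher (0.12; 6.19%) and C3H minus 129P2 4 lower (-0.44; 5.03%). Over all tested genes the medians lay between -0.0033 and 0.0093. Cyp17a1, the steroid 17-hydroxylase, was lower in NZO than in B6 (-1.52) and 129P2 (-1.25) and lower in C3H than in B6 (-1.53) and 129P2 (-1.26), with limma adjusted p from 4.25e-05 to 0.000549. Cyp3a44, a female-biased cytochrome P450, averaged 6.62 ± 0.52 in NZO (3 of 5 arrays dim), 7.71 ± 0.55 in C3H, 7.95 ± 0.38 in 129P2 and 7.83 ± 0.36 in B6 (SD, n = 5 each), and was lower in NZO than in each of the other strains (0.00655, 0.000959 and 0.00228). Abcd2, a peroxisomal fatty acid transporter, was lower in NZO than in B6 (-1.99 ± 0.41, 0.00248), with 4 of 5 NZO arrays and 0 of 5 B6 arrays dim.

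A list of genes chosen as possible regulators of Mup transcription held 30 tested genes, whose effect on Mup genes was not tested. Of these 30, NZO minus B6 called 1 higher and 2 lower (10.3% of all tested genes were called), NZO minus C3H 0 (6.6%), NZO minus 129P2 3 higher and 2 lower (8.9%), C3H minus B6 2 lower (8.05%), 129P2 minus B6 1 higher and 1 lower (6.19%) and C3H minus 129P2 0 (5.03%). Nr1i3, the nuclear receptor CAR, was lower in NZO than in 129P2 by over 2-fold (-1.32 ± 0.26, limma adjusted p = 0.0013; means 9.30 ± 0.53 in NZO and 10.63 ± 0.38 in 129P2, SD, n = 5 each). Ghr, the growth hormone receptor, Stat5b, its main transcription factor in male liver, and Zhx2, a repressor of liver genes that also affects Mup genes in mice, were called in none. Zhx2 averaged 8.14 ± 0.07 in NZO, 8.25 ± 0.22 in C3H, 8.15 ± 0.18 in 129P2 and 8.39 ± 0.08 in B6.

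Rsl1, a zinc finger protein that represses male-biased liver genes in mice, was at 6.99, 7.30, 7.16, 6.91 and 7.28 in NZO and at 6.99, 6.69, 7.08, 7.32 and 7.06 in C3H. In 129P2 it was at 7.16, 7.24, 7.31, 7.19 and 7.18, and in B6 at 7.34, 7.16, 7.68, 7.55 and 7.56. B6 replicate 3, low in the Mup probe sets, had the highest value of all 20 animals. Rsl1 was lower than in B6 in NZO (-0.33 ± 0.11, limma adjusted p = 0.0467) and in C3H (-0.43 ± 0.11, 0.0118). Without B6 replicate 3 the NZO difference was -0.28 and not called (0.132), and the C3H difference was -0.38 and still called (0.0409). The NZO call was lost without any 1 of 12 animals.

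Of the 12 measured genes flanking the Mup cluster, 6 on each side, Cdc26, a subunit of the anaphase-promoting complex, was higher in NZO than in C3H by 0.26 ± 0.08 (limma adjusted p = 0.0498, and up to 0.152 without single animals, 14 of which ended the call), and 0 were called in any other comparison. The share of all tested genes called was 6.6% in NZO minus C3H and 5.03% to 10.3% in the other comparisons. In the reference table the cluster holds 22 protein-coding Mup genes, of which 3 had a probe set of their own. The shared probe sets name only Mup6 and Mup16 besides pseudogenes and Gm21286, so most of the family was named by no probe set.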

How the data were processed

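The authors deposited log2 values for the 20 arrays, made with Affymetrix Expression Console by RMA, per the submitters' processing notes; versions and genome build are not given in the sources used here. These log2 values were used as deposited. Of 35556 probe sets, 21789 had 1 symbol, 1621 several and 12146 were unnamed here; probe sequences were not used. Per gene the probe set of highest mean was taken, and 14190 of 19938 genes entered the tests, those above an array's own 40th percentile on 5 or more arrays.

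limma 3.58.1 (R 4.3.3, with the data.table package at 1.17.8) fitted 1 mean per strain over 20 arrays, with an intensity trend (16 residual and 6.37 prior degrees of freedom), Benjamini-Hochberg over all tested genes and a threshold of 0.05. Exact permutation tests (252 relabellings, two-sided) were run per member and pair; their p-values are printed unadjusted, although an adjustment over pairs had been planned. Python 3.11.15, pandas 2.3.3, scipy 1.17.1, Biopython 1.88 and matplotlib 3.10.9 did the rest. The fit was tested on simulated data. Arrays have no depth, and their number limits the precision. The limma p-values set the differences between strain means against the spread between animals within strains, moderated over genes. The labels do not tie animals to litters, so effects of litter cannot be told apart from strain.

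Members, gene lists and markers were chosen with earlier results of these data known. Named genes were the members, Mup probe sets, list members called with at least a 2-fold difference, set regulators whatever their values (Zhx2, Stat5b, Ghr and Rsl1; another is not reported here), called neighbours and the 3 genes most like each member. Replicates are numbered in the order of the series.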

Additional observations from a re-analysis of the deposited data

Results flagged for a closer look

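In shared Mup probe set 10505261, NZO replicate 4 was at 10.29, apart from the other 4 NZO animals at 9.36 to 9.56. Its gap to the nearest animal was 0.793 of the strain's range, above the Dixon critical value of 0.71 for 5 samples. It was the 1 such case among 44 groups examined, and chance flags about 1 in 20 groups.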

How the results depend on the processing

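For the 4 measured members, 873 of 913 recomputed values kept their direction and their side of the threshold, 17 lost the call, 11 gained one and 12 changed sign. The count of members called in NZO minus B6 was 1 with array weights (Mup5), and in NZO minus C3H 2 with only the compared strains in the fit. In NZO minus 129P2 it was 1 with array weights, with only the compared strains and without the 3 arrays of narrowest spread, and 0 to 1 without single animals. In C3H minus B6 it was 1 with a fold of at least 2 and 1 with array spread as a covariate. In 129P2 minus B6 it was 0 with no filter on dim genes, a filter at the 60th percentile, a fold of at least 2, array spread as a covariate or without the 3 narrowest arrays, and 0 to 2 without single animals. In C3H minus 129P2 it was 2 with array weights. The F-test called 3 with array weights (Mup5 added, 0.0341), 1 with a fold of at least 2, 1 with array spread as a covariate, and 1 to 3 without single animals. Signs changed where the difference was near 0: Mup3 NZO minus C3H (-0.0069) ran from -0.0485 to 0.0161 without single animals, and Mup5 NZO minus C3H (0.0043) was -0.0084 with array weights, -0.0094 with the covariate, -0.0112 without the narrowest arrays, and -0.0548 to 0.0881 without single animals. The causes were not tested. No paired analysis was run, since each array came from a different animal and the labels pair no animals across strains.

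Obp2a lay under the floor in NZO and Mup5 close to it in every strain, which limits their differences, and Mup4 and Mup20 were not analysed here.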
